A study of Mus musculus with 9 samples.

Results

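The 83 cytosolic ribosomal protein genes of the mouse were followed in osteocyte-like cells that shared a culture with chondrocytes. Members were the protein-coding genes of the count table named Rpl or Rps with a number and at most a paralog suffix, together with Rplp0, Rplp1, Rplp2 and Rpsa. They made up 83 of 56748 genes in the table, 51 of the large and 32 of the small ribosomal subunit. They lie on 19 chromosomes. Of the 83 members, 80 had enough reads to be tested, beside 13812 tested genes in all. Rpl3l, Rpl10l and Rpl39l had too few.

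The study asked how osteocytes respond to chondrocytes in an inflamed joint. RNA of the mouse osteocyte-like line MLO-Y4 was sequenced after transwell co-culture, in which soluble factors pass a porous insert. The primary chondrocytes came from the knee cartilage of C57BL/6J pups aged 5 to 6 days. In the control group (3 libraries) the chondrocytes were unstimulated. In the other groups (3 libraries each) they received 10 ng/mL interleukin-1β for 6 h, followed by co-culture for 24 h or 48 h. The culture time of the control is not given in the sources used here, so stimulation and time cannot be told apart. The labels name the line of the 48 h samples MLO-Y5, MLO-Y6 and MLO-Y7, whereas the protocols name MLO-Y4 for all samples. The replicates are labelled as separate samples without saying whether they were separate cultures, so p-values measure the spread between these samples. MLO-Y4 is a line and not tissue osteocytes. Of 10 osteocyte markers, Gja1, Cd44, Pdpn, Phex and Irx5 were expressed, Mepe, Fgf23 and Ptprz1 had no count in any library, and Sost and Dmp1 had at most 6 counts.

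Each cytosolic ribosome carries a copy of nearly every ribosomal protein, and its subunits are assembled in the nucleolus from these proteins and ribosomal RNA. The mRNAs of ribosomal proteins typically begin with a cytosine followed by a run of pyrimidines, the terminal oligopyrimidine (TOP) motif, through which mTORC1 signalling and the binding protein Larp1 control their translation and stability. Some ribosomal proteins have a paralog that replaces them in particular tissues or states. Rpl3l is known from striated muscle, Rpl10l and Rpl39l from testis, and Rps27l as a target of p53.

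The sequences at the annotated transcription start are shown first for 13 members with a called change at 48 h against control or 24 h, because a TOP motif at that site is a known shared feature of the family. Each line gives 30 bases from 10 bases before the RefSeq start, with coordinates of GRCm38.p6, the build of the RefSeq table. Capitals mark a TOP start, defined here as a C within 2 bases of the annotated start that is followed by at least 4 further C or T bases. The first 5 lines belong to members with lower and the next 2 to members with higher expression in at least 1 of these comparisons that have such a start, and the last 6 lines to changed members in which these letters were not found at the annotated start.
Rpl7a (chr2:26910797-26910826, plus strand): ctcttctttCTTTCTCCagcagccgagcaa
Rps27l (chr9:66946076-66946105, plus strand): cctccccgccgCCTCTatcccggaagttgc
Rpl35a (chr16:33056472-33056501, plus strand): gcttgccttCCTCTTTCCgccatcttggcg
Rpl35 (chr2:39005112-39005141, minus strand): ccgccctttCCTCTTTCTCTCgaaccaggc
Rpl38 (chr11:114668570-114668599, plus strand): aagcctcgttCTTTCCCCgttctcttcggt
Rps27 (chr3:90213629-90213658, minus strand): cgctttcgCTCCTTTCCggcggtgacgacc
Rpl28 (chr7:4792955-4792984, plus strand): tctcgtgtCTCTCTTTCCgtctccggccgc
Rpl27 (chr11:101442235-101442264, plus strand): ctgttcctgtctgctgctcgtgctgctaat
Rps2 (chr17:24720053-24720082, plus strand): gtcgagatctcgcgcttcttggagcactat
Rpl7l1 (chr17:46782637-46782666, minus strand): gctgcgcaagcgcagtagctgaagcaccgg
Rpl22l1 (chr3:28805498-28805527, plus strand): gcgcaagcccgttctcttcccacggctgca
Rpl10 (chrX:74270806-74270835, plus strand): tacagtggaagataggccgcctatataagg
Rps28 (chr17:33824543-33824572, minus strand): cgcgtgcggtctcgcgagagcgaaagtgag

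Of the 63 members with an entry in the RefSeq table, 21 (33.3%) had a TOP start at an annotated start, beside 10.5% of the 16770 protein-coding genes with an entry. Rpl35a has further annotated starts, and Rps27l has another. None of these others carried the motif. Rpl8 has no entry. A match depends on the exact annotated base, so a missing match says only that the letters are not at that position.

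Levels of the members differed widely. In CPM, which are counts scaled to the library total with TMM factors, 72 members had a mean of at least 100 CPM over the 9 libraries, and the highest mean was 1738.5 CPM. The 10 highest members held 31.6% of all reads in members. Per kilobase of the GENCODE M39 canonical transcript the median of the 81 members with any read was 376.8 CPM per kb. The highest were Rpl41, the smallest ribosomal protein, at 2315 CPM per kb, Rplp1 of the ribosomal stalk at 1814 and Rps2 of the mRNA entry channel at 1586. The lowest with any read were Rpl3l (0.0285), Rpl29 (0.361) and Rpl24 (1.06).

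Low values need care in this family, because processed pseudogenes and overlapping annotations share its sequence and the handling of such reads is not given. Rpl24, Rpl13a and Rps10, all well below the median level, overlap another annotated gene on the same strand over 71.5%, 59.3% and 53.6% of their transcript. Rps10 is also overlapped on the opposite strand, over 20.7% of its transcript. The overlapping genes Gm28037, Gm45713, Gm15420 and Gm49804 had no count in any library. On the opposite strand Zbtb11os1, with 47 to 97 counts per library, overlaps 47.3% of the transcript of Rpl24. Exact repeats were a further limit. Only copies on the plus strand of the genome were counted, so copies on the minus strand are missed and repeats can be understated. In 12 members more than 50% of all 100-base words of the transcript occurred elsewhere on that strand. In 18 members no such word was found, and the median was 14.6%. Rpl7a (82.2%), Rps12 (83.4%), Rpl3 (85.1%), Rpl10 (63.2%), Rps2 (56.7%), Rps28 (52.7%) and Rpl27 (51.0%) lie above that mark, so reads from their copies could enter or leave their counts, which makes these values uncertain. Rows named as ribosomal protein pseudogenes held 3.49 to 3.80 counts for every 100 counts in members.

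Together the 83 members held 3.84%, 4.11% and 3.63% of all counts in the control libraries, 3.70%, 3.78% and 3.85% at 24 h, and 3.66%, 3.61% and 3.47% at 48 h. The means were 3.86% ± 0.239 (SD, n = 3), 3.78% ± 0.0720 and 3.58% ± 0.0953. The 48 h share was the lowest, but 48 h replicate 1 lay above control replicate 3. The 48 h libraries lay below all 24 h libraries. The large subunit had 1.25 ± 0.0173 times the counts of the small in the control, 1.26 ± 0.00946 times at 24 h and 1.24 ± 0.00759 times at 48 h, where every library lay within the control range and below the 24 h libraries. Library totals were 12250628 to 15956441 counts in control libraries, 14440454 to 15558585 in 24 h libraries and 16458398 to 18515456 in 48 h libraries, so the latter were also the deepest. In a bulk sample, fewer transcripts per cell and fewer cells of a type cannot be told apart.

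**Figure D1:**
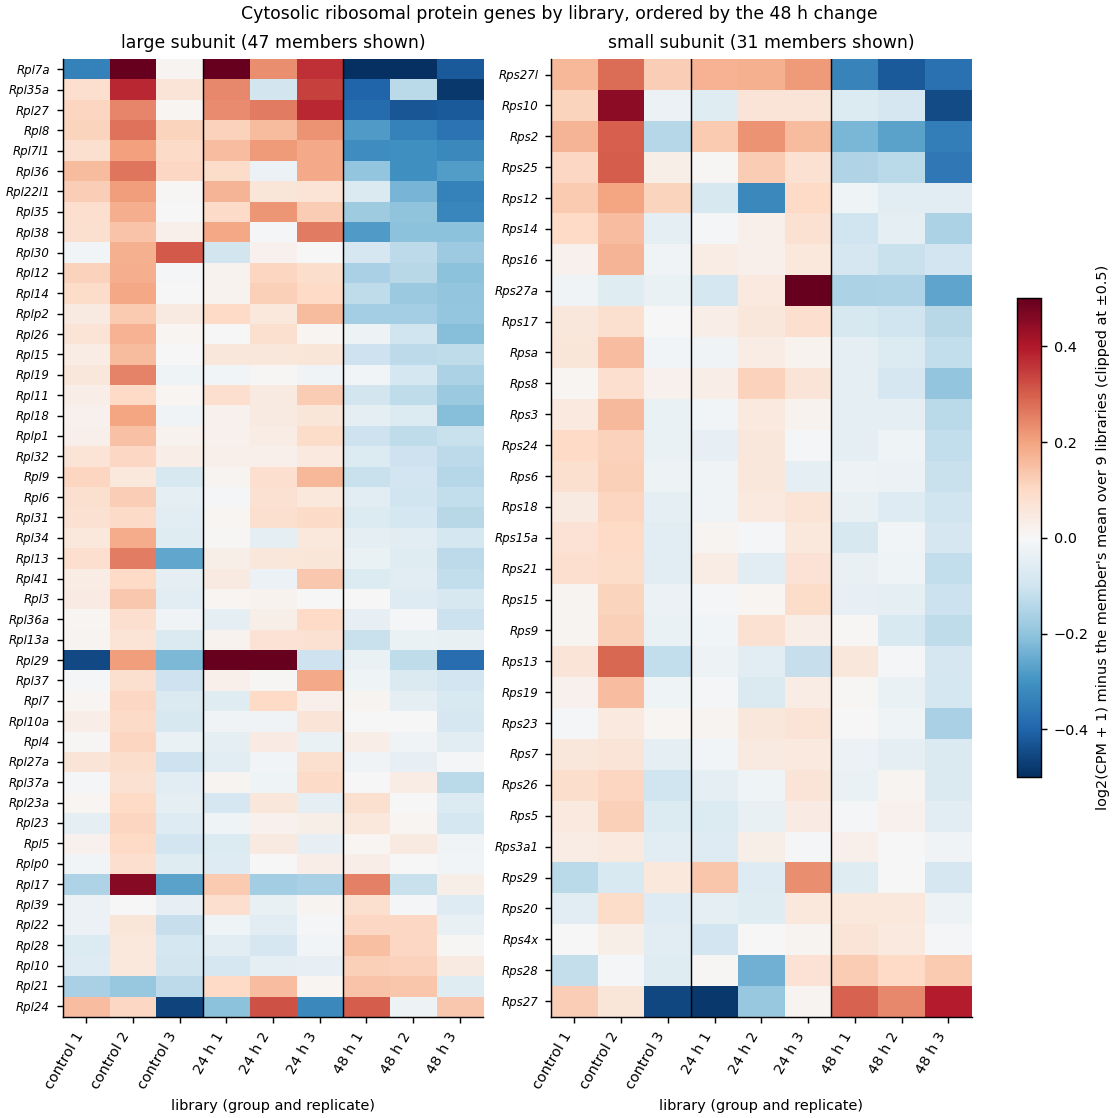
Heatmap of 78 of the 80 tested members (rows, ordered by the 48 h change within each subunit) in the 9 libraries (columns, group and replicate), with colour for log2(CPM + 1) minus the member's own mean, clipped at 0.5 in each direction. The 48 h columns are blue in the upper rows and red in the lowest, while control replicate 2 is red in most rows.

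At 48 h more members were called lower than higher, most of them by a small amount. The fit with edgeR called 35 of the 80 members lower and 4 higher at an adjusted p under 0.05, beside 24.4% of all tested genes called lower and 22% called higher (46.4% in either direction). At an unadjusted p under 0.05 there were 46 members, beside 52.5% of all tested genes. Of the members, 43.8% were lower and 5.00% higher. The median log2 fold change of the members, here also called a log2 shift, was -0.11, a change of -7.61%, beside -0.0022 for all tested genes, and 65 of the 80 lay below 0. The decreases were small. Called members fell by 8.13% to 34.1%, with a median of -12.7%, and 11 of the 35 fell by more than 20%. The groups did not overlap in 41 members (51.2%), beside 53.1% of all tested genes. Without 48 h replicate 3 only 21 members were called lower and 3 higher, beside 2867 and 2637 of 14037 tested genes. Without control replicate 3 the fit called 48 lower, beside 3239 of 14163. The number called higher was 7 without control replicate 2, beside 2989 of 14133 tested genes. It was 2 without control replicate 1 (2764 of 14077), 48 h replicate 1 (2731 of 14025) or 48 h replicate 2 (2616 of 14025).

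Both subunits held members with lower and with higher calls. In the large subunit 23 of 48 members were lower and 2 higher, with a median log2 fold change of -0.12. In the small subunit 12 of 32 were lower and 2 higher, with a median of -0.10. Of all tested genes 24.4% were lower and 22% higher.

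**Figure D2:**
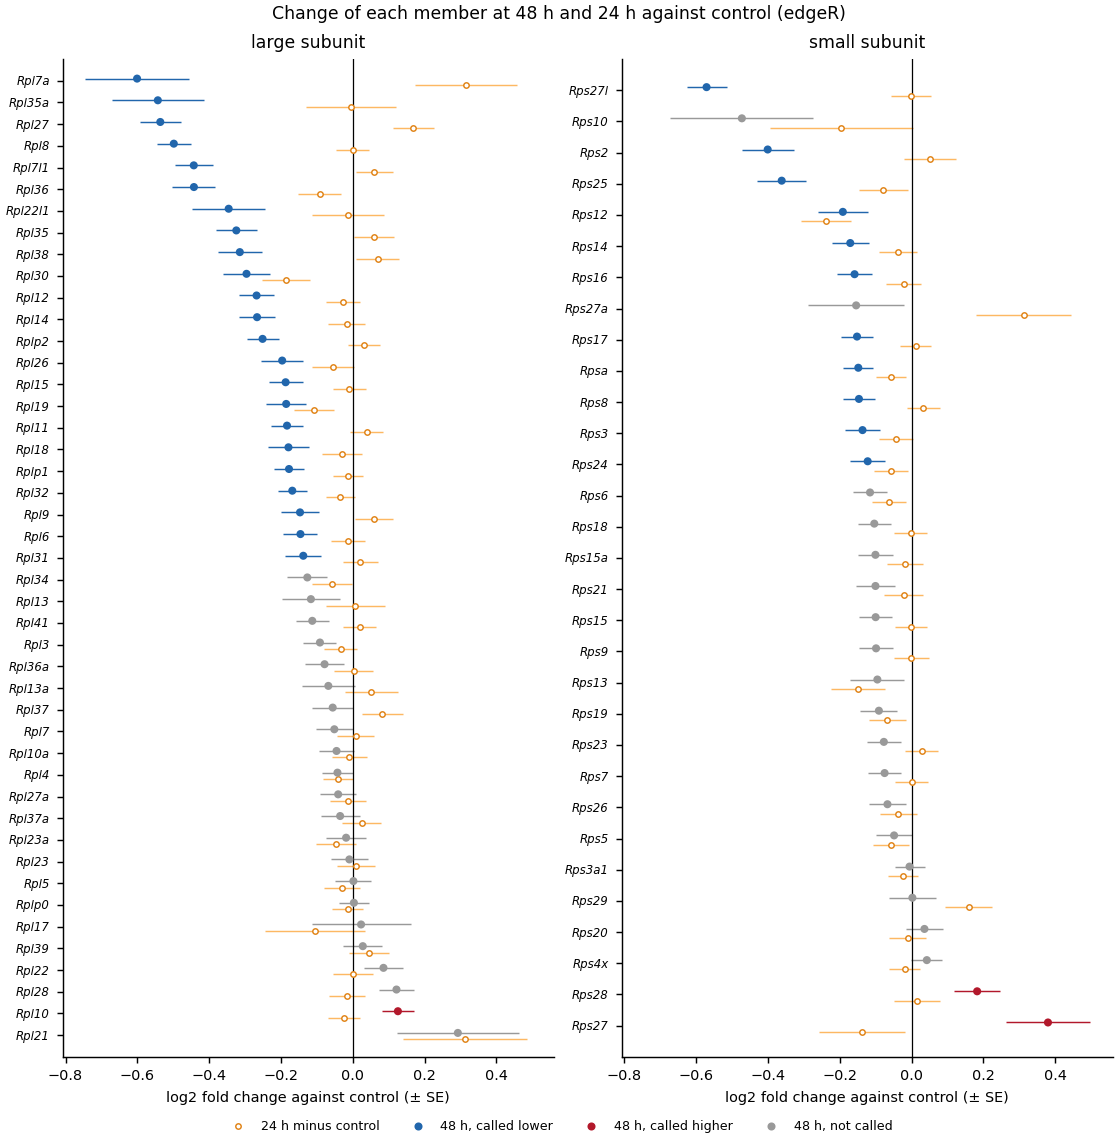
Log2 fold change against control (x axis) with its SE (whiskers) for 76 of the 80 tested members, of the large (left) and small (right) subunit, at 48 h (filled, coloured by the call) and at 24 h (open). The members left out include Rpl24 and Rpl29, which have means below 2 CPM in every group and wide errors. The filled points run from -0.60 for Rpl7a to 0.38 for Rps27, while most open points lie near 0.

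The decreases in the large subunit were led by Rpl7a (chromosome 2, 26800776 to 26803330, GRCm39 as all gene positions here), a core protein whose introns carry small nucleolar RNAs. Its expression was 140.0, 258 and 179 CPM in the control, 278, 208 and 228 CPM at 24 h and 125, 122 and 132 CPM at 48 h. The 48 h libraries were the lowest of all, but the control libraries spread widely and control replicate 1 lay close to 48 h. The log2 shift at 48 h was -0.60 ± 0.15 (SE, edgeR adjusted p 0.00231), and it ranged from -0.78 to -0.32 when each library was left out in turn, with -0.32 without control replicate 2.

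Rpl27 (chromosome 11, 101333124 to 101336355) and Rpl35a (chromosome 16, 32876823 to 32880559), both linked in humans to Diamond-Blackfan anaemia, fell as well. Rpl27 was at 381, 421 and 357 CPM in the control, 417, 425 and 460.2 CPM at 24 h and 271, 263 and 265 CPM at 48 h, and its 48 h log2 difference from control was -0.54 ± 0.06 (SE, edgeR adjusted p 3.73e-07). Its 48 h libraries lay well below the rest and close to each other. Rpl35a had far lower measured values. It was at 18.6, 22.98 and 18.3 CPM in the control, 20.8, 16.3 and 22.4 at 24 h and 12.97, 15.8 and 12.2 at 48 h. On the plus strand 41.4% of the words of its transcript were repeated elsewhere, with minus-strand copies not counted, so its level is uncertain. The log2 shift was -0.54 ± 0.13 (SE, edgeR adjusted p 0.00194), and the highest 48 h library was just below the lowest of the others.

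Rpl8 (chromosome 15, 76788278 to 76790514), which lies near the peptidyl transferase centre, was an abundant member that fell. It was at 1248, 1394 and 1247 CPM in the control, 1251, 1289.6 and 1349 CPM at 24 h and 948, 912 and 893 CPM at 48 h. The control and 24 h libraries overlapped, and every 48 h library was far below them. The log2 shift was -0.50 ± 0.05 (SE, edgeR adjusted p 8.32e-08). On the plus strand 1.47% of the words of its transcript were repeated elsewhere, with copies on the minus strand not counted. Of the remaining called members of the large subunit, Rpl36 had a log2 shift of -0.44, Rpl35 of -0.32, Rpl38 of -0.31 and Rpl12 of -0.27, names chosen after their values were seen.

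In the small subunit the largest called decreases were those of Rps27l, described with its partner Rps27, and Rps2 (chromosome 17, 24937090 to 24940903). Rps2 was at 1930.2, 2115 and 1556 CPM in the control, 1879, 2008 and 1916 CPM at 24 h and 1466, 1425 and 1351 CPM at 48 h, with a log2 shift of -0.40 ± 0.07 (SE, edgeR adjusted p 0.000179). Control replicate 3 was the lowest control library and still lay above all 48 h libraries. Rps10, at 4.33, 5.72 and 3.84 CPM in the control and 3.71, 3.66 and 2.62 at 48 h, had a log2 value of -0.47 that was not called (adjusted p = 0.0604). Rps25 followed among the called members, at -0.36. Rps12 was lower at 48 h with a log2 shift of -0.19 ± 0.07 (SE, edgeR adjusted p 0.0328), and its 24 h difference of -0.24 was not called (adjusted p = 0.053).

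The members called higher at 48 h included Rps27, Rps28 and Rpl10. Rps27 (chromosome 3, 90119829 to 90120958), a zinc finger protein of the small subunit, was at 255, 244 and 170.3 CPM in the control, 167, 205 and 236 CPM at 24 h and 287, 277 and 308 CPM at 48 h. All 48 h libraries were above all others, although control and 24 h libraries varied by more than the step from the highest control to 48 h. The log2 shift was 0.38 ± 0.12 (SE, edgeR adjusted p 0.0131). The log2 shift was 0.23, still called, without control replicate 3 and up to 0.50 without control replicate 1. Without 48 h replicate 3 the adjusted p was 0.0518, and DESeq2 gave an adjusted p of 0.0740, so this call depends on the setting. Without control replicate 3, Rps27 was also called lower at 24 h, at -0.29 (adjusted p = 0.0314).

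Rps28 (chromosome 17, 34038001 to 34043536), near the channel where mRNA leaves the small subunit, was at 204, 220.3 and 212 CPM in the control, 223, 187 and 233 at 24 h and 242, 238 and 243 at 48 h, with a log2 shift of 0.18 ± 0.06 (SE, edgeR adjusted p 0.0268). Its call was lost without control replicate 1 and without each 48 h library in turn, with adjusted p up to 0.0860. Rpl10 (chromosome X, 73314418 to 73316741), which joins the large subunit late in its maturation, was at 659, 715 and 646 CPM in the control, 649.6, 668 and 669 at 24 h and 748, 746 and 710.1 at 48 h. Its 48 h and control libraries overlapped, and its log2 shift of 0.13 ± 0.04 (SE, edgeR adjusted p 0.0273) was lost without control replicate 1, 48 h replicate 1 or 48 h replicate 2.

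**Figure D3:**
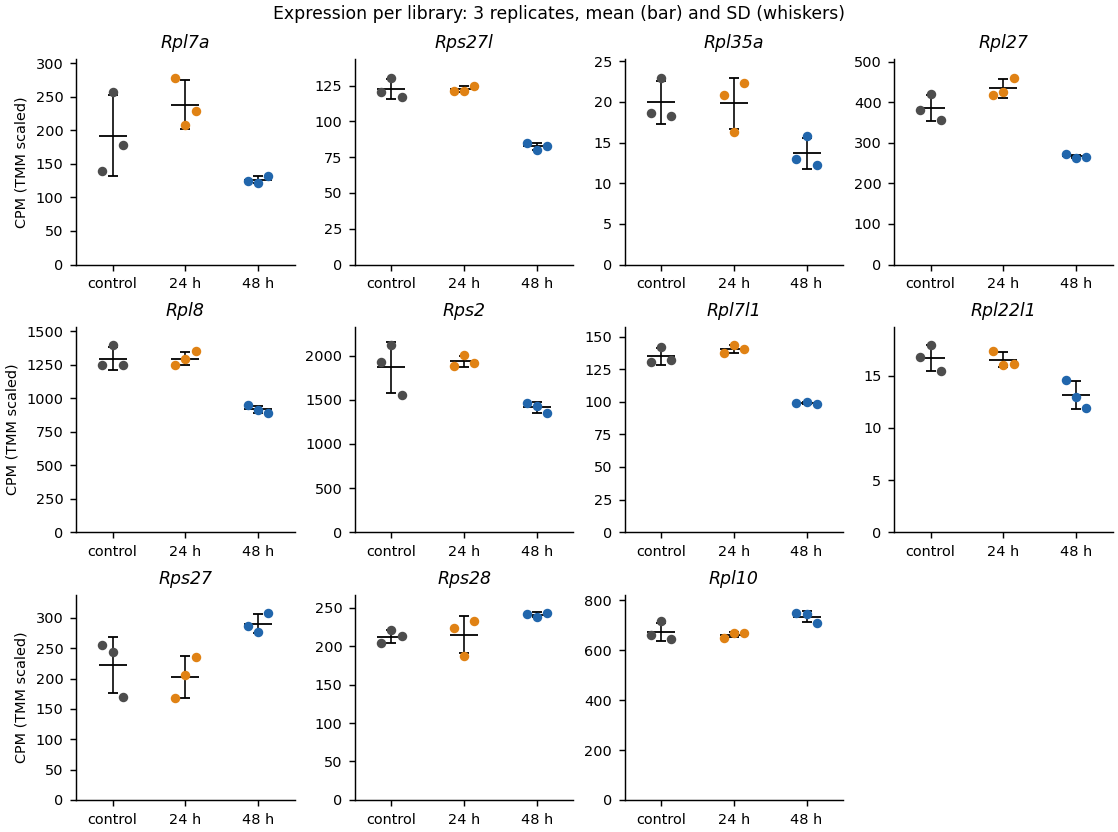
Expression in CPM (y axis, from 0) of 11 members in the control, 24 h and 48 h libraries, with points for the 3 replicates, a bar for the mean and whiskers for the SD. In the upper 8 panels the 48 h points are the lowest, and in the lower row they are the highest apart from Rpl10, where control replicate 2 at 715 CPM exceeds the lowest 48 h library at 710.1 CPM.

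Members that work together had different calls in the following groups, which were picked after the values were seen. In the stalk that recruits elongation factors, the base protein Rplp0 averaged 1117 ± 57.8 CPM in control libraries (SD, n = 3) and 1119 ± 18.9 CPM at 48 h, with a log2 shift of 0.00 ± 0.04 (SE, edgeR adjusted p 0.958). Its partners Rplp1 and Rplp2 fell, with log2 shifts of -0.18 ± 0.04 (SE, edgeR adjusted p 0.00187) and -0.25 ± 0.04 (SE, edgeR adjusted p 0.000152). Removing the trend of expression on gene length ended the call of Rplp1 (adjusted p = 0.0637).

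The proteins that carry 5S rRNA into the large subunit, and that bind Mdm2 when free, also had different calls. Rpl11 fell from 404 ± 12.97 to 356 ± 11.6 CPM (SD, n = 3), with a log2 shift of -0.18 ± 0.05 (SE, edgeR adjusted p 0.00286), whereas Rpl5 had 541 ± 36.3 and 542 ± 12.1 CPM, a log2 shift of 0.00 ± 0.05 (SE, edgeR adjusted p 0.979). Whether the members of each group differed from each other was not tested. Rps6, the substrate of S6 kinase, had a log2 shift of -0.12 and was not called (adjusted p = 0.0541). Rpsa, also known as the laminin receptor, fell slightly, with a log2 shift of -0.15 ± 0.04 (SE, edgeR adjusted p 0.00722). Rpl41 and Rpl28 missed the threshold, at -0.11 (adjusted p = 0.0532) and 0.12 (adjusted p = 0.0519). Rpl28 was called higher without control replicate 2 (adjusted p = 0.00380) and by DESeq2 (adjusted p = 0.0366), and Rpl41 lower without control replicate 3 (adjusted p = 0.0151).

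At 24 h no member was called in either direction by edgeR, beside 3.25% of all tested genes called higher and 2.9% called lower (6.15% in either direction). At an unadjusted p under 0.05 there were 7 members, beside 18.7% of all tested genes, and the smallest adjusted p was 0.0530. DESeq2 called 1 member lower and none higher, beside 375 and 500 of 13812 tested genes. The median log2 fold change was -0.01, and 49 members lay below 0. The groups did not overlap in 2 members, Rps12 and Rpl21, beside 21.5% of all tested genes. Single libraries decided some calls. Without control replicate 2, Rpl7a and Rpl27 were called higher at 24 h, with log2 shifts of 0.59 (adjusted p = 0.000523) and 0.24 (adjusted p = 0.00430). Without control replicate 3, 1 member was called higher and 4 lower, beside 873 and 602 of 14163 tested genes. Rps27a, which encodes ubiquitin fused to a ribosomal protein, was at 178, 196 and 315 CPM at 24 h beside 188, 182 and 185 CPM in the control, so that 24 h replicate 3 alone was high.

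Comparison of 48 h with 24 h, which shares the 48 h libraries with the comparison against control, called 31 members lower and 5 higher, beside 25.4% and 23.7% of all tested genes. At an unadjusted p under 0.05 there were 43 members, beside 54.9% of all tested genes, and the groups did not overlap in 48 members (60%), beside 59.4%. The median log2 fold change was -0.10, with 22 lower and 3 higher of 48 in the large subunit and 9 lower and 2 higher of 32 in the small. Members called lower fell by 8.76% to 49.4%. In both 48 h comparisons 28 members were lower and 4 higher, 7 were lower against control only (Rpl19, Rpl26, Rpl30, Rps3, Rps12, Rps24 and Rpsa), 3 were lower against 24 h only (Rpl29, Rpl41 and Rps27a), Rpl28 was higher against 24 h only, and 37 were called in neither. For all tested genes the calls of the 48 h comparisons were not combined. These combined counts therefore have no share beside them and show nothing particular to the members. Against 24 h the number called higher was 3 without 24 h replicate 1 (2921 of 14149 tested genes) or 24 h replicate 2 (3006 of 14122). It was also 3 without 48 h replicate 1 (2895 of 14025) or 48 h replicate 2 (2892 of 14025).

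Rpl7a had the largest difference between the times among well expressed members, -0.92 ± 0.14 (SE, edgeR adjusted p 3.63e-05), followed by Rpl27 at -0.70 ± 0.06 (SE, edgeR adjusted p 9.2e-09). Rps27 differed by 0.52 ± 0.12 (SE, edgeR adjusted p 0.00131) in the other direction. Rpl29 had a log2 difference of -0.98 ± 0.38 (SE, edgeR adjusted p 0.0379), but at 2.07, 2.21 and 0.988 CPM at 24 h and 1.09, 0.959 and 0.641 CPM at 48 h its groups overlapped, and DESeq2 did not call it (adjusted p = 0.0580).

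Each paralog with enough reads fell at 48 h, while its canonical partner was not called lower. Rps27l (chromosome 9, 66853368 to 66856798) was at 121, 130.5 and 117 CPM in the control, 121, 121 and 125 CPM at 24 h and 84.96, 80.01 and 82.6 CPM at 48 h. All 48 h libraries lay far below the rest, with a log2 shift of -0.57 ± 0.06 (SE, edgeR adjusted p 1.32e-07) and a call with each library left out in turn. No word of its transcript recurred on the plus strand of the genome, with copies on the minus strand not counted. The counts of Rps27l went from 56.5% ± 11.0 (SD, n = 3) of those of Rps27 in the control and 61.5% ± 9.94 at 24 h to 28.5% ± 1.44 at 48 h.

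Rpl22l1 (chromosome 3, 28859585 to 28861573), whose level is known to rise where Rpl22 is lost, was at 16.8, 17.9 and 15.4 CPM in the control, 17.4, 16.1 and 16.2 CPM at 24 h and 14.6, 12.9 and 11.96 CPM at 48 h. The 48 h libraries were the lowest, with a log2 shift of -0.35 ± 0.10 (SE, edgeR adjusted p 0.009) that was lost without 48 h replicate 3 (adjusted p = 0.0579). Its partner Rpl22 (chromosome 4, 152410199 to 152418528) was at 258 ± 15.8, 258 ± 4.71 and 274 ± 15.2 CPM (SD, n = 3) and was not called at 48 h (adjusted p = 0.211), but was higher without control replicate 2, by 0.14 on the log2 scale (adjusted p = 0.0308). The counts of Rpl22l1 were 6.48% ± 0.102 of those of Rpl22 in the control, 6.42% ± 0.286 at 24 h and 4.80% ± 0.311 at 48 h.

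Rpl7l1 (chromosome 17, 47084833 to 47093598), a relative of Rpl7 found in particles that mature into large subunits, was at 130.2, 142 and 132 CPM in the control, 137, 143 and 141 CPM at 24 h and 99.3, 99.5 and 98.4 CPM at 48 h. The 48 h libraries lay close together and below all others, with a log2 shift of -0.44 ± 0.05 (SE, edgeR adjusted p 1.54e-06). Rpl7 (chromosome 1, 16171519 to 16174886) averaged 629 ± 38.8 CPM in control libraries and 607 ± 19.7 CPM at 48 h (SD, n = 3) and was not called (adjusted p = 0.44). The paralog had 21.4% ± 0.758 of the counts of its partner in the control, 22.2% ± 0.793 at 24 h and 16.3% ± 0.468 at 48 h.

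On the log2 scale the ratio of paralog to partner at 48 h was lower than in the control by a difference of -0.97 for Rps27l, -0.43 for Rpl22l1 and -0.39 for Rpl7l1, with no overlap between the groups in any pair. Each difference had an exact two-sided permutation p of 0.1, the smallest that 3 against 3 libraries allow (0.15 after adjustment over 9 tests), so no ratio could pass the threshold. At 24 h the differences were 0.13, -0.02 and 0.05. The tissue-restricted paralogs were at or near the limit of detection. Rpl10l and Rpl39l had no count in any library, which allows up to 0.162 to 0.245 CPM per library (3 counts, for counting error only), and Rpl3l had at most 2 counts. Their partners Rpl10, Rpl39 (144 ± 2.19 CPM in the control and 147 ± 7.61 at 48 h, SD, n = 3) and Rpl3 (816 ± 53.8 and 766 ± 22.5) were all well expressed. Rpl39 and Rpl3 were not called at 48 h, at log2 fold changes of 0.03 and -0.09, but Rpl3 was lower without control replicate 3 (adjusted p = 0.0197).

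**Figure D4:**
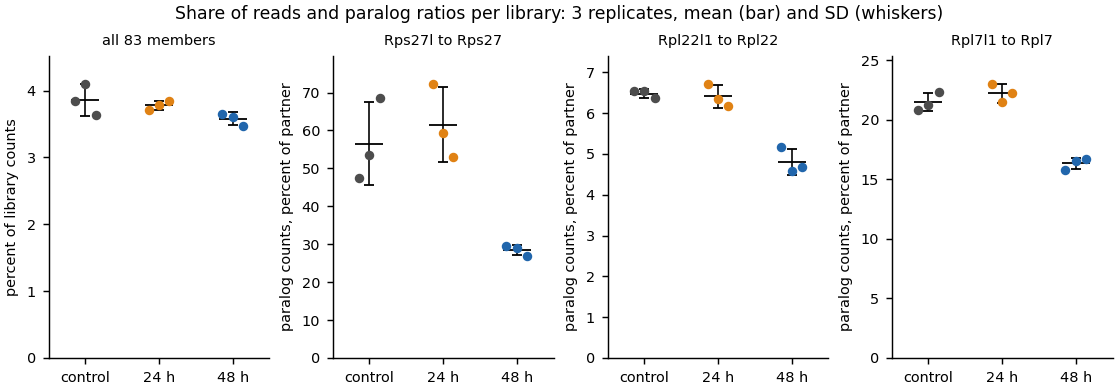
Percent of library counts held by all 83 members (left) and counts of each paralog as a percent of those of its canonical partner (the other panels), per library in the control, 24 h and 48 h groups, with points for the 3 replicates, a bar for the mean and whiskers for the SD. The paralog ratios of the 48 h libraries lie below all others, and the share of all members at 48 h overlaps the control.

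Members with and without the sequence features named above changed as follows, beside 24.4% of all tested genes lower and 22% higher at 48 h against control. Of the 21 members with a TOP start, 11 were lower and 1 higher at 48 h, with a median log2 fold change of -0.18. Of the 39 tested members with an entry but no TOP start, 15 were lower and 2 higher, with a median of -0.10. The difference between these sets was not tested. Of the 12 members with more than 50% of their words repeated on the plus strand, 5 were lower and 2 higher. Of the 15 tested members with no word repeated there, 7 were lower and none higher. Copies on the minus strand were not counted, so this split is uncertain.

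Most genes of ribosome assembly and of the mitochondrial ribosome were also lower at 48 h. In a list of 101 ribosome biogenesis factors, 93 (92.1%) were lower at 48 h and none higher, with a median log2 fold change of -0.55. Of all tested genes 24.4% were lower and 22% higher. At 24 h no factor of this list was called, beside 6.15% of all tested genes, and the median was 0.04. Nhp2, a protein of box H/ACA particles, went from 133 ± 8.06 to 51.03 ± 1.01 CPM (SD, n = 3), a log2 shift of -1.38 ± 0.06 (SE, edgeR adjusted p 3.88e-12). Rrp12, a factor of pre-ribosome export, had one of -1.26 ± 0.07 (SE, edgeR adjusted p 6.43e-11). Of 77 tested mitochondrial ribosomal proteins, 61 (79.2%) were lower and none higher, with a median of -0.34. They included Mrps6 at -0.77, Mrpl20 at -0.72 and Mrpl12 at -0.67 (adjusted p of 1.63e-06, 2.44e-07 and 4.88e-08).

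Other mRNAs known for a TOP start were mixed, with a median of -0.17. Of 28, 14 (50%) were lower and 6 (21.4%) higher, beside 24.4% and 22% of all tested genes. The elongation factor subunit Eef1d, the chaperonin subunit Cct4 and the helicase Eif4a1 fell, with log2 shifts of -0.58, -0.47 and -0.46 (adjusted p of 3.56e-07, 1.26e-07 and 3.68e-08), and the initiation factor Eif2s3x had -0.43 (adjusted p = 9.78e-05). Rack1, which sits on the small subunit, was at 685 ± 21.3 and 680.5 ± 10.1 CPM (SD, n = 3), with a log2 shift of -0.01 ± 0.04 (SE, edgeR adjusted p 0.865). Fau, whose product is a ribosomal protein fused to a ubiquitin-like protein and which the naming rule of the members does not take in, had a log2 shift of 0.07 (adjusted p = 0.302), and was called higher without control replicate 2 (adjusted p = 0.0356). Of 8 noncoding hosts of small nucleolar RNAs with TOP starts, 4 (50%) were lower and none higher, including Snhg1 at -0.69 and Snhg5 at -0.57 (adjusted p of 4.92e-07 and 0.000239).

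Regulators of this system changed in both directions at 48 h, with a median of -0.03. Of 37 tested, 10 (27.0%) were higher and 13 (35.1%) lower, beside 22% and 24.4% of all tested genes. Myc, a transcription factor known to drive ribosome production, was at 129, 131 and 123 CPM in the control, 125, 133 and 130.5 CPM at 24 h and 80.6, 82.9 and 81.4 CPM at 48 h. The log2 shift at 48 h was -0.64 ± 0.05 (SE, edgeR adjusted p 1.49e-08), with no overlap between the groups. Larp1, which binds the TOP motif, fell, with a log2 shift of -0.42 ± 0.05 (SE, edgeR adjusted p 4.97e-06). The mTORC1 inhibitors named by rule rose, Sesn3 by 1.29 ± 0.09 (SE, edgeR adjusted p 1.13e-09), Sesn1 by 0.92 ± 0.06 (SE, edgeR adjusted p 1.01e-09) and Ddit4 by 0.90 ± 0.06 (SE, edgeR adjusted p 5.64e-10) on the log2 scale. The rule takes the largest changes, and the list holds other mTORC1 inhibitors that are not described here. Ddit4 was already higher at 24 h, with 0.71 ± 0.06 (SE, edgeR adjusted p 2.23e-07), whereas Sesn1 was lower at 24 h, with -0.36 ± 0.07 (SE, edgeR adjusted p 0.00155). Eif4ebp1, the inhibitor of cap-dependent initiation, was not called at 48 h (-0.10, adjusted p = 0.275), but was lower without control replicate 3 (adjusted p = 0.0452).

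**Figure D5:**
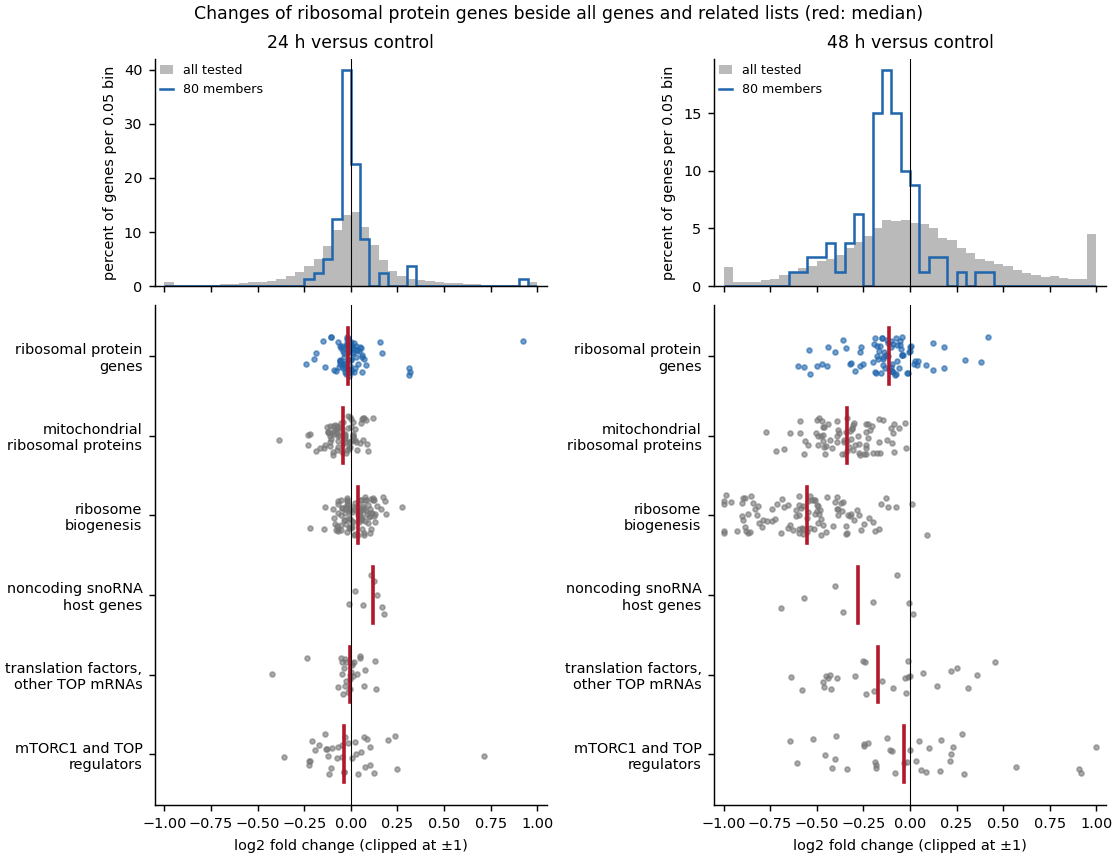
Log2 fold change against control (x axis, clipped at 1 in each direction) at 24 h (left) and 48 h (right). Upper panels give the percent of genes per bin for all tested genes (grey) and the 80 members (blue), and lower panels give each gene of the members and of 5 related lists as a point, with the median in red. At 48 h the medians are -0.11 for the members, -0.34 for mitochondrial ribosomal proteins and -0.55 for ribosome biogenesis.

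Markers of chondrocytes, the other cell type of the co-culture, moved with the 48 h group. Their summed level was 1684 to 1717 CPM in the control, 1568 to 1651 CPM at 24 h and 2131 to 2219 CPM at 48 h, most of it from Prg4. Of 15 markers 6 could be tested, of which 4 were higher and 1 lower at 48 h, beside 22% and 24.4% of all tested genes. The defining markers Acan, Matn1, Col9a1, Col9a2 and Cnmd had no count in any library and Col2a1 had at most 7. The summed osteocyte markers were 1953 to 2145 CPM in the control, 2256 to 2289 CPM at 24 h and 2877 to 2922 CPM at 48 h, and the summed osteoblast markers 5451 to 5603, 5408 to 5628 and 4280.5 to 4317 CPM. The part of cell makeup and of depth in the changes of the members was not tested.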

How the data were processed

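RNA of 9 MLO-Y4 co-culture libraries (control, 24 h and 48 h, 3 each) was measured as a deposited table of raw gene counts, for which the authors' processing notes name HISAT2 and featureCounts (version 2.06) on mm39 (GRCm39). The study's methods also name RSEM for quantification, which shares multi-mapping reads among genes, so it is open which tool made these whole-number counts. Strand setting and handling of multi-mapping reads are not given in the sources used here. Total counts ranged from 12250628 to 18515456, and floors cover counting error only. The gene length column of the table was not used in the fit that gave the main calls.

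Counts were tested with edgeR 4.0.16 (limma 3.58.1) in R 4.3.3 in 1 fit of all 9 libraries, with filterByExpr at a minimum count of 10, TMM scaling, quasi-likelihood tests and Benjamini-Hochberg adjustment over 13812 genes at 0.05. The tested genes held 99.9% of counts. The script was tested on simulated counts. CPM values use TMM-scaled totals. Paralog ratios used counts plus 0.5. Alternatives were DESeq2 1.42.0, library size scaling, scaling without the members, other filters, removal of a gene length trend, a replicate block, only the 6 libraries compared, a threshold of 0.01 and leaving out each library. Start sequences came from RefSeq (GRCm38.p6), repeats (plus strand only) and overlaps from GRCm39 with GENCODE M39, and 63 of 83 members had a RefSeq entry.

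The genes named were the paralog pairs, the 5 higher and 5 lower called members with the largest change per comparison (no overlap between the groups, and 5 CPM or more on average in 1 of them), the 3 highest and 3 lowest per kilobase, up to 2 per related list and comparison, the members with no count, and Myc, Larp1, Eif4ebp1, Fau and Rack1. Some genes that this rule names are not reported here. Other members named were chosen after their values were seen. The members and lists were chosen with earlier results of these data known. No label says that replicate numbers pair the libraries. Correlations of deviations between libraries of the same number ran from -0.05 to 0.08, which cannot exclude a pairing. Replicates differed by more than sampling noise, with a chi-square per degree of freedom of 2.32 to 8.83. The summed macrophage markers lay between 3.80 and 7.93 CPM in every library.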

Additional observations from a re-analysis of the deposited data

Results flagged for a closer look

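For 15 of the named members the effect at 48 h differed from the effect at 24 h, by the test of 48 h against 24 h in edgeR's fit of all libraries. In this comparison 49.1% of all tested genes were called. The naming rule took Rpl7a, Rpl27, Rps27l, Rpl35a, Rpl7l1, Rps27, Rps28, Rpl10 and Rpl28 by their calls in this same test. Some of them were named on other grounds as well. The outcome was thus fixed in part by the naming, and the count of 15 is no separate support. The values are log2 differences of 48 h from 24 h. The members that were lower at 48 h were Rpl29 (-0.98), Rpl7a (-0.92), Rpl27 (-0.70), Rps27l (-0.57), Rpl35a (-0.54), Rpl7l1 (-0.50), Rpl8 (-0.50), Rps2 (-0.45), Rpl22l1 (-0.33), Rplp1 (-0.16) and Rpl41 (-0.13). Those that were higher were Rps27 (0.52), Rps28 (0.17), Rpl10 (0.15) and Rpl28 (0.14). Rpl29 stood below 3 CPM in every library. Some of these calls were lost when 1 library was left out. That of Rps28 was lost without 24 h replicate 2 (adjusted p = 0.216) and without each 48 h replicate (adjusted p up to 0.0930). That of Rpl28 was lost without 24 h replicate 1 or 2 and without 48 h replicate 1 or 2 (up to 0.146). Rpl41 lost its call without 24 h replicate 1 or 3 and without 48 h replicate 3 (up to 0.2002), and with library sizes only (0.0998). Rpl29 lost it without 24 h replicate 1 or 2 and without 48 h replicate 2 or 3 (up to 0.169), Rpl22l1 without 24 h replicate 1 or 48 h replicate 3 (up to 0.0648) and Rpl10 without 24 h replicate 1 (0.0540).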

How the results depend on the processing

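No called result changed its direction under the alternatives run. At 48 h against control, removing the trend on gene length gave 7 members higher, beside 3201 of 13812 tested genes. A threshold of 0.01 gave 1 higher and 23 lower, beside 2196 and 2564 of 13812. At 24 h, 4 members were higher without the filter (759 of 26232 tested genes) and 1 with the length trend removed (595 of 13812). At that time 1 was lower with library sizes only (486 of 13812), without the filter (436 of 26232) and with DESeq2 (375 of 13812). Against 24 h, the 0.01 threshold left 3 higher, beside 2445 of 13812 tested genes. Without mitochondrially encoded genes the members' share was 3.97% in the control, 3.88% at 24 h and 3.68% at 48 h. The lowest control library, at 3.73%, lay below the highest 48 h library, at 3.76%. Leaving out each library gave 2 to 7 members higher and 21 to 48 lower at 48 h against control. Of all tested genes 2616 to 3200 were then higher and 2839 to 3239 lower. At 24 h it gave 0 to 2 higher and 0 to 4 lower, beside 295 to 873 and 222 to 602. Against 24 h it gave 3 to 6 higher and 22 to 36 lower, beside 2892 to 3596 and 2991 to 3640. These fits tested 14025 to 14173 genes, and the cause was not tested. The median log2 fold change of the members then ranged from -0.14 to -0.06, from -0.05 to 0.04 and from -0.12 to -0.07. DESeq2 called 4 higher and 31 lower at 48 h, beside 2904 and 2996 of 13812 tested genes.

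With a replicate block, 5 members were higher and 36 lower at 48 h against control, beside 3088 and 3380 of 13812 tested genes. At 24 h 0 were higher and 1 lower, beside 538 and 420. Against 24 h 5 were higher and 33 lower, beside 3298 and 3512. The numbers pair no libraries by any label, and 5 of 9 libraries correlated best with their own number.

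Depth limits the members under 10 CPM, and 3 libraries per group cannot bring a permutation p below 0.1.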
